A study of Mus musculus with 8 samples.

Results

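The genes described here are 10 members of the S100 family of calcium-binding proteins, S100a1, S100a3, S100a4, S100a6, S100a10, S100a11, S100a13, S100a14, S100a16 and S100b. They were listed by symbol and found by Ensembl identifier among the 55488 genes of the deposited tables, and all 10 were expressed enough to enter the 16908 genes tested. The study profiled dorsal skin by bulk RNA-seq in 4 libraries labelled TPH1 knockout and in 4 wild-type libraries. All mice were 3 months old, Tph1 encodes the serotonin-synthesising tryptophan hydroxylase of peripheral tissues, and the question was how its loss bears on epidermis and dermis. Strain, sex, litter and the kind of knockout allele are not given in the sources used here. Nor is it stated whether libraries stand for separate animals, and the p-values below measure library-to-library spread, which may be technical.

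Knockout libraries held 20971362 to 24463068 expected counts and wild-type libraries 20531601 to 24678638. Tph1 itself had 0 counts in each of the 4 knockout libraries, against 18, 0, 27 and 11 counts in wild-type replicates 1 to 4 (exact permutation p = 0.143, two-sided). Wild-type replicate 2, with none, is thus not told apart from knockout by that gene, and Tph1 knockout replicate 3 stands apart through its hair genes, as given beside S100a3. Markers of the labelled tissue were present, and none of the marker lists used below held a gene at 0 in all libraries: the 7 basal keratinocyte markers summed to between 9689 and 17952 CPM (counts scaled to a common library size) in knockout and between 13508 and 25653 CPM in wild type.

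S100 proteins are small EF-hand proteins that usually work as dimers: calcium binding exposes a surface with which they grip partner proteins, among them annexins, myosin and calcium channels. Some are also released from cells and act on receptors such as the product of Ager. In skin, several belong to the keratinocyte and hair programmes, and most S100 genes lie in or beside the epidermal differentiation complex, the gene cluster that also encodes loricrin, filaggrin and the small proline-rich and late envelope proteins.

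Transcript levels spanned more than 2 orders of magnitude between members. On the length-corrected TPM scale, S100a11 was the most abundant member at 1172 ± 187 TPM in knockout and 2045 ± 411 TPM in wild type (SD, n = 4 each), and S100a6 followed at 862 ± 200 TPM in knockout and 1540 ± 405 TPM in wild type. Next came S100a10 (451 ± 41.3 TPM in knockout, 741 ± 178 TPM in wild type), S100a14 (332 ± 35.0 and 577 ± 158 TPM in the same order), S100a4 (225 ± 32.6 and 457 ± 127 TPM) and S100a16 (189 ± 35.0 and 321 ± 72.3 TPM). S100a1 stood at 128 ± 14.5 TPM in knockout and 136 ± 32.1 TPM in wild type, S100a13 at 37.1 ± 5.49 and 67.6 ± 16.7 TPM, and S100b at 5.62 ± 0.70 and 6.45 ± 1.49 TPM. S100a3 averaged 54.6 ± 93.6 TPM in knockout, a mean carried by 1 library, and 5.31 ± 3.32 TPM in wild type. Within wild type the ranges of S100a11 and S100a6, S100a10 and S100a14, S100a14 and S100a4, S100a4 and S100a16, and S100b and S100a3 overlapped. The other 4 steps were separate. Compared within each library, S100a11 stayed above S100a6, S100a10 above S100a14 and S100a4 above S100a16 in all 4 libraries of both genotypes. Less clear was S100a14 over S100a4, found in 2 of 4 wild-type and 4 of 4 knockout libraries. S100b over S100a3 was found in 2 of 4 libraries of each genotype. Together the 10 members made up 0.354%, 0.393%, 0.337% and 0.299% of all TPM in knockout replicates 1 to 4, against 0.552%, 0.625%, 0.737% and 0.446% in wild-type replicates 1 to 4. The knockout libraries all lay below the wild-type libraries in this summed share, which S100a11, S100a6 and S100a10 dominate.

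**Figure D1:**
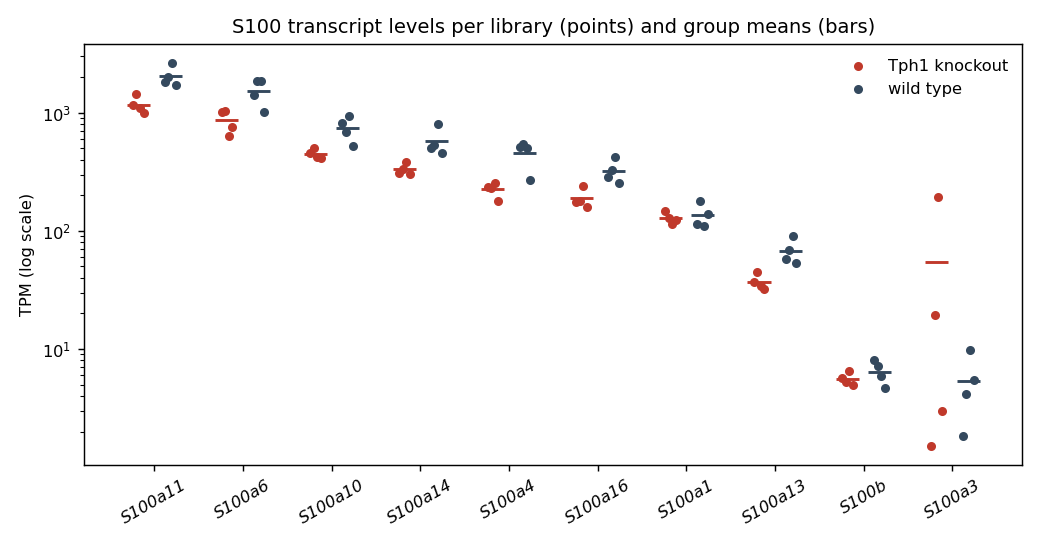
TPM of the 10 S100 genes (log scale) in 4 Tph1 knockout and 4 wild-type libraries, ordered by wild-type mean; points are libraries and bars are group means. S100a11 and S100a6 are highest, and the S100a3 points of the knockout spread from 1.51 to 195 TPM.

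No member passed the test between genotypes, yet 7 of the 10 had log2 fold changes (knockout over wild type) between -0.96 and -0.64. In edgeR's quasi-likelihood test, 0 of 10 members were called at an adjusted p under 0.05, where 0.651% of all tested genes were called. At an unadjusted p under 0.05, 7 members were lower and 1 was higher, where 9.37% of all tested genes were lower and 8.26% higher at that level. In 6 members, S100a4, S100a10, S100a11, S100a13, S100a14 and S100a16, all 4 knockout libraries lay below all 4 wild-type libraries, an arrangement found in 5.65% of tested genes. The median log2 fold change was -0.75 over the 10 members and 0.03 over all genes tested. The DESeq2 Wald test on the same counts called those same 6 members lower in knockout, with adjusted p of 0.00108 to 0.0373, where it called 3.89% of all genes lower. In either direction DESeq2 called 5.95% of genes. The call on these 6 genes thus depends on the tool. Log2 fold changes were negative in 9 of 10 members, where 46.9% of all tested genes were negative.

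**Figure D2:**
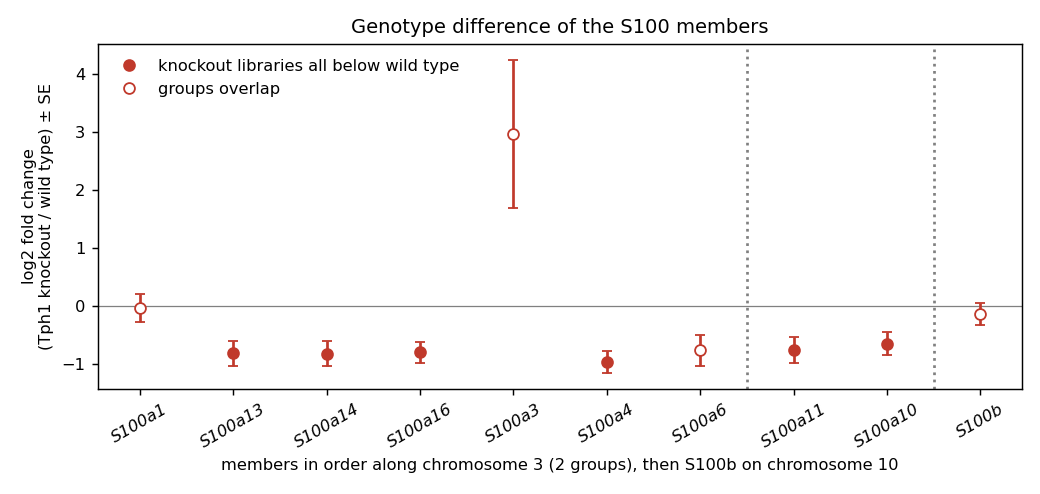
Log2 fold change (Tph1 knockout over wild type) ± SE of each member, in order along chromosome 3 and then S100b; dotted lines part the S100a1 to S100a6 group, the S100a11 and S100a10 pair, and S100b. The 6 filled points are members whose knockout libraries all lay below wild type, and S100a3 stands apart at 2.97 ± 1.28.

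Single libraries stood out in several members. In CPM, wild-type replicate 3 was the highest library for 5 members and wild-type replicate 2 for 3, while Tph1 knockout replicate 3 was the lowest for 6. Of these 6, only S100a6 was also lowest there in TPM (632). By TPM, S100a10, S100a11, S100a13 and S100a14 were lowest in Tph1 knockout replicate 4, and S100a1 in wild-type replicate 3. With Tph1 knockout replicate 3 left out, the log2 fold changes of the 7 lower members ran from -0.91 for S100a4 to -0.52 for S100a10, and with wild-type replicate 2 left out as well they ran from -0.81 for S100a4 and S100a14 to -0.49 for S100a6. Those 7 stayed negative under each of the 16 alternatives tried for them. In fits without knockout replicate 1, 2, 3 or 4, 0 members were called, where 0.11%, 0.0465%, 0.991% and 0.081% of tested genes were called. Without wild-type replicate 1, 2, 3 or 4 the members called were also 0, beside 0.151%, 0.509%, 0.186% and 0.156% of genes, and without both doubted libraries 0, beside 0.985%. The count was 0 as well with RLE scaling (0.603% of genes called), a gene length offset (0.461%), and limma on the authors' normalized signal (0.552%), on log2(TPM + 0.1) (0.172%) and on log2(TPM + 1) (0.166%), while with no filter on low counts S100a4 was called beside 0.528% of genes.

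S100a10 and S100a11 are known for binding annexins, as some other S100 proteins also do. S100a10, also known as p11, does not itself need calcium, joins annexin A2 at the plasma membrane and there can bind plasminogen, and S100a11 pairs with annexin A1 and in human keratinocytes is cross-linked into the cornified envelope. The pair lies on the plus strand of chromosome 3 (GRCm38), S100a11 (ENSMUSG00000027907) at chr3:93520488-93526287 and S100a10 (ENSMUSG00000041959) at chr3:93555080-93564643. S100a11 measured 398, 418, 249 and 305 CPM in knockout replicates 1 to 4, against 445, 570, 738 and 558 CPM in wild-type replicates 1 to 4. Every knockout library was below every wild-type one, the closest being knockout replicate 2 and wild-type replicate 1 (log2 fold change -0.75 ± 0.22 SE, edgeR adjusted p = 0.148). S100a10 measured 233, 217, 145 and 187 CPM in knockout, against 298, 291, 386 and 247 CPM in wild type. These groups also did not overlap (log2 fold change -0.64 ± 0.19 SE, edgeR adjusted p = 0.154). Its neighbour S100a11 has near-identical annotated copies (85% identity or more along 200 bases or more), between which reads may have been divided, so its level is uncertain to that extent. The copy with the most counts, Gm12854, held 15.8 to 59.9 per library, against 5712 to 16431 for S100a11.

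The stretch before the S100a11 start carries more of the searched promoter motifs than that of any other member with a RefSeq entry, and is printed for that reason (RefSeq, GRCm38.p6, chr3:93520246-93520495, plus strand, 250 bases). Capitals mark AP-1 sites (TGANTCA) and GC boxes (GGGCGG), searched on both strands together with CCAAT and TATAAA; no marked motif overlaps another.
S100a11: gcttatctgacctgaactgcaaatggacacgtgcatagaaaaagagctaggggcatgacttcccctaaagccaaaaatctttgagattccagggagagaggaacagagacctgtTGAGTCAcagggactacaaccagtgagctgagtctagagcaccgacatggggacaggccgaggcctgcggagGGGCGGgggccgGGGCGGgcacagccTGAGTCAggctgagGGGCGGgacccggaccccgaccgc
The 2 AP-1 sites begin 136 and 38 bases before the start, and 6.75% of 32851 promoter windows of the same length hold at least 1. The 3 GC boxes begin 64, 52 and 24 bases before it, and 32.7% of windows hold at least 1. RefSeq's promoter table held 8 of the 10 members. Letters that match a motif are a description and show no binding.

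Most annexin genes also had negative log2 fold changes, and none of the 10 tested, of 12 listed, was called. Their median log2 fold change was -0.32, beside 0.03 over all genes tested. Of the 10, 8 were negative, where 46.9% of all tested genes were negative. In 4 the knockout libraries all lay below wild type, as in 5.65% of all tested genes. Anxa1, a calcium-dependent membrane binder of differentiating keratinocytes, was at 390 ± 26.2 CPM in knockout and 618 ± 84.8 CPM in wild type (log2 fold change -0.66 ± 0.16 SE, edgeR adjusted p = 0.0977). Anxa2, the partner of S100a10, was at 782 ± 113 CPM in knockout and 1397 ± 262 CPM in wild type (-0.84 ± 0.21 SE, edgeR adjusted p = 0.104). Log2 fold changes were -1.09 ± 0.28 for Anxa9 and -0.56 ± 0.17 for Anxa5, further annexins (SE, edgeR adjusted p = 0.112 and 0.152).

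Within a library, the ratio of counts between a member and its partner does not depend on how libraries are scaled. The S100a10 to Anxa2 ratio was 0.255, 0.266, 0.225 and 0.248 in knockout replicates 1 to 4, against 0.234, 0.208, 0.219 and 0.213 in wild type. The mean log2 ratio was -2.01 ± 0.10 in knockout and -2.19 ± 0.07 in wild type (SD, n = 4 each), a difference of 0.18 with overlapping groups (exact permutation p = 0.0571, adjusted p = 0.0857 over 3 ratios). The S100a11 to Anxa1 ratio ran from 0.606 to 1.09 in knockout and from 0.643 to 1.08 in wild type, nearly the same span (exact permutation p = 0.657, adjusted p = 0.657). These 3 ratios, the third of which is S100a13 to S100a1 below, were chosen after the members' values had been seen, and 4 against 4 libraries allow no exact p under 0.0286.

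S100a14 and S100a16 are members of epithelial cells, and they lie beside each other on the plus strand. S100a14 (ENSMUSG00000042306, chr3:90526856-90528837) measured 247, 226, 186 and 210 CPM in knockout replicates 1 to 4, against 288, 343, 551 and 348 CPM in wild-type replicates 1 to 4. The highest knockout library stayed below the lowest wild-type library, and wild-type replicate 3 was well above its group (log2 fold change -0.81 ± 0.21 SE, edgeR adjusted p = 0.118). S100a16 (ENSMUSG00000074457, chr3:90537254-90543151) measured 163, 138, 131 and 125 CPM in knockout, against 188, 248, 314 and 216 CPM in wild type. It too showed no overlap (log2 fold change -0.80 ± 0.18 SE, edgeR adjusted p = 0.0841). Across the 8 libraries S100a14 and S100a16 followed each other more closely than any other member followed either, with a root mean square distance of 0.11 between their centred log2(CPM + 1) profiles.

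Among keratinocyte markers, all 10 suprabasal ones had negative log2 fold changes, with a median of -1.17. Of these, 3 were called lower, where 0.651% of all tested genes were called in either direction. They were the calmodulin-like gene Calm4, the differentiation peptide gene Krtdap and the loricrin gene Lor (log2 fold changes -1.54 ± 0.21, -1.37 ± 0.21 and -1.47 ± 0.24 SE, edgeR adjusted p = 0.0202, 0.0324 and 0.0379). The 10 summed to 4612, 4662, 8399 and 6999 CPM in knockout replicates 1 to 4, against 15848, 12016, 11731 and 12201 CPM in wild type. Within a genotype the order of this suprabasal sum differed from that of S100a14. On the CPM scale, knockout replicate 3 had the highest sum of its group and the lowest S100a14, and wild-type replicate 1 likewise. In TPM, S100a14 was instead highest of its group in knockout replicate 3 (380, against 307, 337 and 305 in replicates 1, 2 and 4). Wild-type TPM of S100a14 was lowest in replicate 4 (459), not in replicate 1 (505). Wild-type replicate 3 had the lowest sum of its group and the highest S100a14. Single suprabasal markers differed in this: within wild type Krt1, Krtdap and Calm4 were highest in replicate 3, and the others in replicate 1. The 7 basal markers had a median of -0.30 and none was called. Those with the smallest p were Trp63, Itga6 and Krt14 (-0.44 ± 0.19, -0.30 ± 0.17 and -0.52 ± 0.39 SE, edgeR adjusted p = 0.269, 0.378 and 0.502). The 7 summed to 17380, 17952, 9689 and 14981 CPM in knockout replicates 1 to 4, against 13508, 18489, 25653 and 15307 CPM in wild type. Knockout replicate 3 and wild-type replicate 1 were lowest of their groups for this basal sum and, in CPM but not in TPM, for S100a14. Wild-type replicate 3 was highest of its group for both. The top knockout library was replicate 2 for the basal sum, and for S100a14 it was replicate 1 in CPM and replicate 3 in TPM. The 14 immediate early and heat shock genes, which respond to tissue handling, were all negative with a median of -1.82 and summed to 2169 to 5217 CPM in knockout and 3220 to 17532 CPM in wild type. Nr4a1 alone among them was called (-2.18 ± 0.33 SE, edgeR adjusted p = 0.0324), and Hspb1 and Hspa1a were at -0.94 ± 0.18 and -0.90 ± 0.19 (SE, edgeR adjusted p = 0.0576 and 0.0718). The part of any of these lists in the S100 values was not tested, and in whole skin fewer cells of a type cannot be told apart from less RNA per cell.

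S100a4 and S100a6 are neighbours known from motile and mesenchymal cells. S100a4 binds non-muscle myosin and is expressed by fibroblasts, macrophages and T cells, and S100a6, calcyclin, binds the product of Cacybp. S100a4 (ENSMUSG00000001020, chr3:90603771-90606045, plus strand) had the smallest p of the 10 members. It measured 78.2, 64.0, 55.9 and 52.2 CPM in knockout replicates 1 to 4, against 119, 149, 135 and 83.8 CPM in wild-type replicates 1 to 4. All knockout libraries lay below wild type, though wild-type replicate 4 came close to knockout replicate 1. Its log2 fold change was -0.96 ± 0.20 (SE, edgeR adjusted p = 0.0671). Without a filter on low counts it was called at an adjusted p of 0.0278, and in fits that left out 1 library its adjusted p ran from 0.0590 to 0.269. S100a6 (ENSMUSG00000001025, chr3:90612882-90624181, plus strand) measured 331, 293, 147 and 221 CPM in knockout, against 344, 503, 498 and 329 CPM in wild type. The groups overlapped, because knockout replicate 1 was slightly above wild-type replicate 4 (log2 fold change -0.76 ± 0.27 SE, edgeR adjusted p = 0.204).

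Upstream sequence of S100a4 is shown as that of the member with the smallest p (RefSeq, GRCm38.p6, chr3:90603520-90603769, plus strand, 250 bases). The capitals mark a TATA box (TATAAA), which begins 31 bases before the start and is found in 12.4% of windows.
S100a4: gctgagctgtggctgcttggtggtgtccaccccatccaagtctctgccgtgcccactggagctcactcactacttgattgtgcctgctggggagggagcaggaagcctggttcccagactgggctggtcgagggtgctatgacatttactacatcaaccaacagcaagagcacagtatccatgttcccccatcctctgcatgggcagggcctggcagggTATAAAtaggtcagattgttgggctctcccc

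Markers of cells in which S100a4 is known are given beside it. The 11 myeloid and dendritic markers, none called, had a median log2 fold change of -0.62 and summed to 346, 393, 967 and 376 CPM in knockout replicates 1 to 4, against 1001, 828, 699 and 668 CPM in wild type. Knockout replicate 3 was thus near the top for these markers and, in CPM, near the bottom for S100a4. On the TPM scale S100a4 was 238, 229, 255 and 179 in knockout replicates 1 to 4, so that replicate 3 was highest of its group. Wild-type replicates 1 to 4 were at 509, 547, 502 and 269 TPM. Among them the macrophage gene Cd68 was at -0.86 ± 0.27 with no overlap between groups, and the antigen presentation gene H2-Aa and the lysozyme gene Lyz2 were at -0.76 ± 0.33 and -0.59 ± 0.26 (SE, edgeR adjusted p = 0.166, 0.269 and 0.283). The 11 fibroblast markers, none called, had a median of -0.40 and summed to 783 to 2192 CPM in knockout and 1071 to 4062 CPM in wild type. Thy1, Col1a1 and Col3a1 were at -0.62 ± 0.26, -1.29 ± 0.62 and -0.996 ± 0.50 (SE, edgeR adjusted p = 0.264, 0.311 and 0.327). Wild-type replicate 1 stood far above its group for Col1a1 and Col3a1, at 921 and 889 CPM. The other wild-type libraries held 171 to 215 and 229 to 282 CPM, and knockout libraries 82.6 to 292 and 111 to 352 CPM. The 6 tested of 7 T cell markers had a median of -0.24, and all 7 summed to 9.02 to 34.5 CPM in knockout and 16.8 to 32.7 CPM in wild type. Cd3d, Cd3g and Trdc came first among them, at -0.63 ± 0.35, -0.61 ± 0.42 and -0.39 ± 0.46 (SE, edgeR adjusted p = 0.370, 0.468 and 0.675). Their part in the S100a4 value was not tested.

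S100a13 and S100a1 are transcribed away from each other from neighbouring starts but differed in their values. S100a13 binds the growth factor encoded by Fgf1 and helps its export from cells by a route without a signal peptide, and S100a1 is a protein of striated muscle that acts on the ryanodine receptor and the calcium pump of the sarcoplasmic reticulum. S100a13 (ENSMUSG00000042312) lies on the plus strand at chr3:90514435-90524581 and S100a1 (ENSMUSG00000044080) on the minus strand at chr3:90511034-90514392. The 42 bases between their GENCODE starts are shown because both genes open from them (RefSeq sequence, GRCm38.p6, chr3:90514393-90514434, plus strand), and none of the searched motifs is in this window.
S100a1-S100a13: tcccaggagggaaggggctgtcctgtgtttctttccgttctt

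S100a13 measured 19.99, 20.2, 12.3 and 15.3 CPM in knockout replicates 1 to 4, against 22.5, 30.2, 39.5 and 26.6 CPM in wild-type replicates 1 to 4. Every knockout library was below every wild-type library (log2 fold change -0.81 ± 0.21 SE, edgeR adjusted p = 0.121). S100a1 measured 73.3, 53.3, 37.8 and 54.5 CPM in knockout, against 40.5, 73.8, 44.5 and 65.2 CPM in wild type. Its groups overlapped fully and its log2 fold change was -0.03 ± 0.24 (SE, edgeR adjusted p = 0.957, 95% interval -0.57 to 0.50), which turned positive in 4 of 16 alternatives. The S100a13 to S100a1 count ratio was 0.273, 0.380, 0.326 and 0.282 in knockout, against 0.556, 0.409, 0.888 and 0.409 in wild type. The ratio was lower in every knockout library than in any wild-type library, though knockout replicate 2 was close to wild-type replicates 2 and 4. The highest ratios, in wild-type replicates 3 and 1, came from the libraries with the least skeletal muscle RNA (marker sums of 14011 and 35866 CPM, given below). The part of muscle RNA in this ratio was not tested. On the log2 scale the mean ratio was -1.68 ± 0.22 in knockout and -0.90 ± 0.53 in wild type (SD, n = 4 each; exact permutation p = 0.0286, the smallest possible, adjusted p = 0.0857 over 3 ratios).

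**Figure D3:**
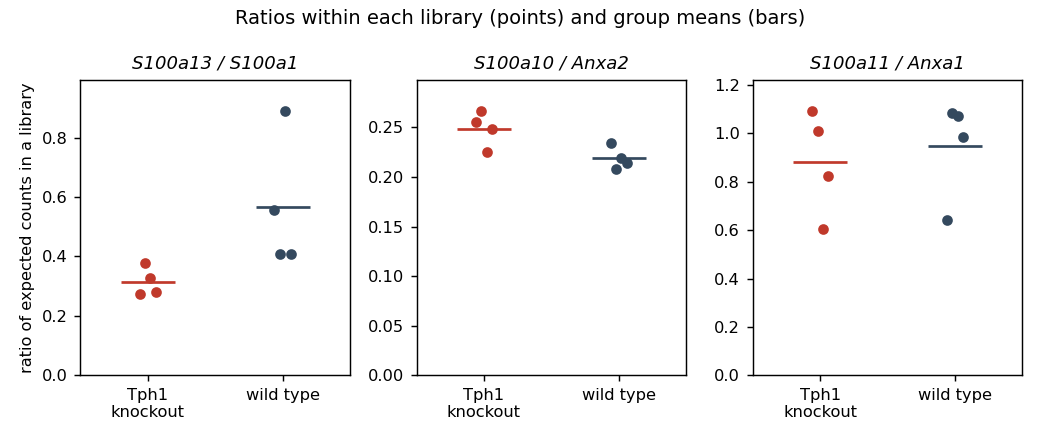
Ratio of expected counts within each library for S100a13 to S100a1, S100a10 to Anxa2 and S100a11 to Anxa1 in 4 Tph1 knockout and 4 wild-type libraries; points are libraries, bars are means and each axis starts at 0. The S100a13 to S100a1 points do not overlap (0.273 to 0.380 in knockout, 0.409 to 0.888 in wild type), and those of the other ratios do.

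Fgf1, the cargo of S100a13, was the only one of 19 tested partner genes that passed, where 0.651% of all tested genes did, and it rose. Fgf1 measured 43.4, 53.2, 51.9 and 54.4 CPM in knockout replicates 1 to 4, against 27.3, 26.8, 23.4 and 31.1 CPM in wild type (log2 fold change 0.90 ± 0.13 SE, edgeR adjusted p = 0.0220). Every knockout library exceeded every wild-type library, whereas for S100a13 every knockout library was the lower. Il1a, an alarm cytokine that also leaves cells without a signal peptide, was at 2.42 ± 0.70 CPM in knockout and 4.97 ± 2.42 CPM in wild type (-1.04 ± 0.39 SE, edgeR adjusted p = 0.222).

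S100a1 followed muscle RNA in part across libraries. The 14 skeletal muscle markers were all positive with a median log2 fold change of 0.46 and none was called; the myosin genes Myh1 and Myh2 and the titin-cap gene Tcap were at 1.65 ± 0.51, 1.08 ± 0.42 and 0.95 ± 0.45 (SE, edgeR adjusted p = 0.159, 0.231 and 0.310). Their summed level was 101110, 57099, 54391 and 98864 CPM in knockout replicates 1 to 4, against 35866, 91190, 14011 and 76064 CPM in wild type. The 4 libraries with the most muscle RNA, knockout replicates 1 and 4 and wild-type replicates 2 and 4, were also the 4 with the most S100a1 in CPM. That match was narrow, with S100a1 at 54.5 CPM in knockout replicate 4 and 53.3 CPM in knockout replicate 2. In TPM it did not hold, since knockout replicate 2 (128 TPM) stood above knockout replicate 4 (123 TPM). The muscle sum therefore varied widely within wild type, and its part in the S100a1 value was not tested.

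S100a3 was the only member with a higher mean in knockout, and that mean came from 1 library. The protein is rich in cysteine and belongs to the hair cuticle, where the enzyme encoded by Padi3 converts its arginines. S100a3 (ENSMUSG00000001021, chr3:90560578-90602702, plus strand) measured 0.648, 8.95, 69.0 and 1.55 CPM in knockout replicates 1 to 4, against 0.907, 2.09, 4.31 and 2.93 CPM in wild-type replicates 1 to 4. Knockout replicate 3 was far above all others, while knockout replicate 1 was the lowest of the 8 libraries. The log2 fold change was 2.97 ± 1.28 (SE, edgeR adjusted p = 0.272), and without Tph1 knockout replicate 3 it was 0.55 ± 0.85. The 6 tested of 14 hair shaft markers were all positive, and 0 were called. They were led by the hair keratin genes Krt33a, Krt31 and Krt35 (4.51 ± 1.68, 3.82 ± 1.51 and 2.06 ± 1.47 SE, edgeR adjusted p = 0.222, 0.241 and 0.484). The 13 markers found in the tables summed to 30.03, 71.0, 458 and 27.5 CPM in knockout, against 18.3, 27.9, 60.3 and 41.3 CPM in wild type. Knockout replicate 3, knockout replicate 2, wild-type replicate 3 and wild-type replicate 4 were, from the top, the 4 highest libraries for S100a3 and for hair markers alike. Padi3 had the same top 3 libraries, at 34.8, 10.7 and 8.49 CPM (log2 fold change 2.19 ± 1.70 SE, edgeR adjusted p = 0.523).

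**Figure D4:**
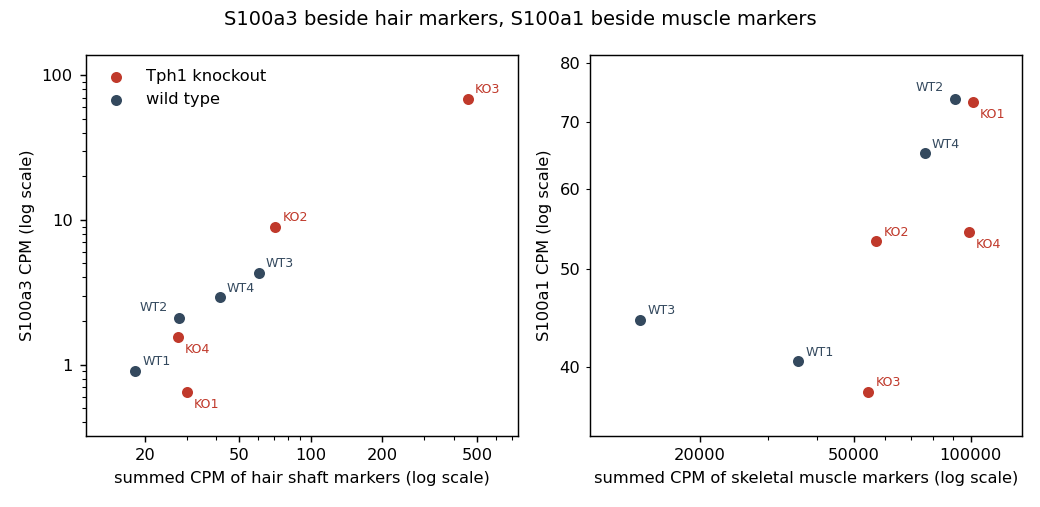
S100a3 CPM against the summed CPM of hair shaft markers (left), and S100a1 CPM against the summed CPM of skeletal muscle markers (right), on log axes; each point is a library, KO1 to KO4 for Tph1 knockout replicates 1 to 4 and WT1 to WT4 for wild type. Knockout replicate 3 stands apart at 69.0 CPM of S100a3 and 458 CPM of hair markers.

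RefSeq lists several starts for S100a3. The one that holds both a CCAAT box (printed on the other strand as ATTGG) and a TATA box, marked in capitals, is shown as an example of this hair gene (GRCm38.p6, chr3:90588313-90588562, plus strand, 250 bases).
S100a3: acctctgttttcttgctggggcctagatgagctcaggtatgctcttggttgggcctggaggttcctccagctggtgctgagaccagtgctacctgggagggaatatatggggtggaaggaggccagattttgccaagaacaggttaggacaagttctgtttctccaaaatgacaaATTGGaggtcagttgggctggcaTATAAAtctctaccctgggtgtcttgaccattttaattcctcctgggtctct
The motifs begin 75 and 52 bases before that start, and 33.8% of promoter windows hold a CCAAT box and 12.4% a TATA box. Of the 4 listed S100a3 starts it is the only one with either motif.

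S100b, the only member outside chromosome 3 (ENSMUSG00000033208, chr10:76253853-76261159, plus strand), is the S100 protein of Schwann cells, melanocytes and adipocytes. It measured 7.17, 5.62, 5.66 and 5.55 CPM in knockout replicates 1 to 4, against 7.41, 7.37, 6.07 and 5.49 CPM in wild-type replicates 1 to 4. The groups overlapped throughout (log2 fold change -0.13 ± 0.19 SE, edgeR adjusted p = 0.741, 95% interval -0.56 to 0.29). Depth was low for this gene, at 122 to 196 counts per library. The 11 Schwann cell markers had a median log2 fold change of -0.10 and summed to 385 to 508 CPM in knockout and 339 to 616 CPM in wild type. Cdh19, Pmp22 and Cnp had the smallest p among them, at 0.60 ± 0.52, -0.25 ± 0.24 and -0.12 ± 0.17 (SE, edgeR adjusted p = 0.565, 0.604 and 0.741). Melanocyte markers, 4 tested of 7, had a median of 0.44, and all 7 summed to 14.2 to 85.2 CPM in knockout, where replicate 3 was the highest, and 21.8 to 33.3 CPM in wild type. The pigment genes Tyrp1, Pmel and Dct were at 0.97 ± 0.71, 0.69 ± 0.62 and 0.19 ± 0.40 (SE, edgeR adjusted p = 0.492, 0.578 and 0.835). The 10 adipocyte markers had a median of -0.53 and summed to 1877 to 4559 CPM in knockout and 3632 to 4688 CPM in wild type, with Plin4, Pparg and Retn at 0.48 ± 0.18, -0.69 ± 0.31 and -0.58 ± 0.27 (SE, edgeR adjusted p = 0.219, 0.277 and 0.292). No gene of these 3 lists was called.

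For the intracellular partners and the receptors of S100 proteins, median log2 fold changes lay near 0. Of 21 partner genes 19 were tested, and 1 was called higher (Fgf1) and 0 lower, where 0.651% of all tested genes were called in either direction. The median log2 fold change of the partner genes was 0.04. After Fgf1 and Il1a, the smallest p belonged to the potassium channel gene Kcnk3 and the actin capping gene Capza1 (-0.66 ± 0.33 and -0.26 ± 0.16 SE, edgeR adjusted p = 0.330 and 0.434). Ahnak, which encodes the scaffold bound by S100a10 and annexin A2, was at -0.22 ± 0.24, Myh9, the myosin partner of S100a4, at -0.03 ± 0.17 and Cacybp at -0.08 ± 0.12 (SE, edgeR adjusted p = 0.653, 0.941 and 0.754). Of 13 receptor and plasminogen system genes 12 were tested and none was called, with a median of -0.10. The urokinase receptor gene Plaur, the adhesion gene Mcam and the plasminogen receptor gene Plgrkt were at -1.23 ± 0.61, -0.35 ± 0.20 and -0.18 ± 0.13 (SE, edgeR adjusted p = 0.323, 0.379 and 0.476). Ager was barely expressed, at 1.58 ± 0.69 CPM in knockout and 1.68 ± 0.74 CPM in wild type.

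**Figure D5:**
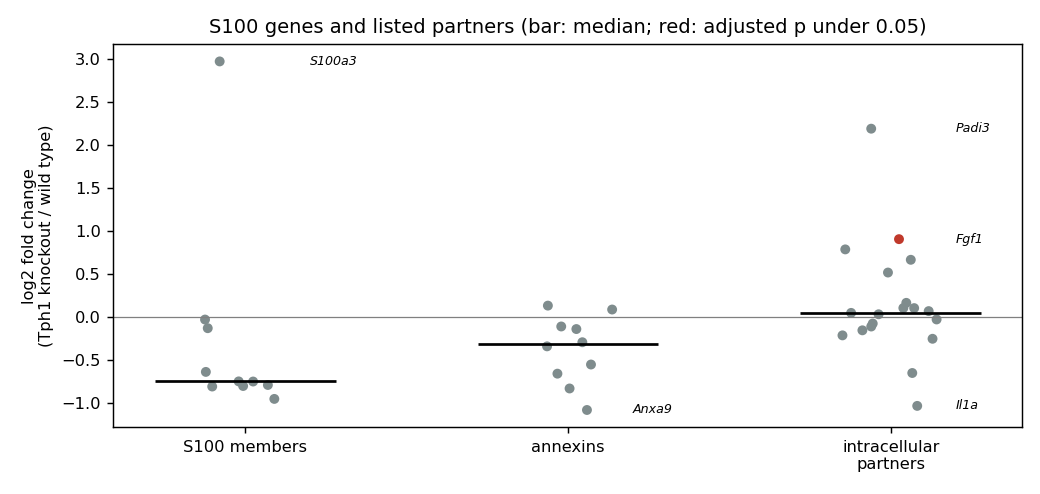
Log2 fold change (Tph1 knockout over wild type) of each tested S100 member, annexin and intracellular partner gene; each point is a gene, bars are medians (-0.75, -0.32 and 0.04) and red marks an adjusted p under 0.05. Fgf1 is the only red point.

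The S100a genes stand in 2 groups on chromosome 3, and the genes between the groups were examined as their neighbours. From S100a1 to S100a6 no other gene was tested, while 45 other tested genes lie between S100a6 and S100a10, among them the epidermal differentiation complex. Of these 45, 37 had a negative log2 fold change, where 46.9% of all tested genes were negative. Their median was -0.97, beside 0.03 over all genes tested. Called were 3, all lower, where 0.651% of all tested genes were called in either direction. They were Lor and Crct1, both of the cornified layer, and 2310050C09Rik (-1.47 ± 0.24, -1.40 ± 0.22 and -1.24 ± 0.22 SE, edgeR adjusted p = 0.0379, 0.0324 and 0.0458). All 7 lower members had log2 fold changes smaller in size than the median of the 45, S100a4 (-0.96) only narrowly.

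Members were also compared with other genes by their profiles over the 8 libraries. The measure was the root mean square distance between log2(CPM + 1) profiles, each centred on its mean, among 14602 other tested protein-coding genes, and the nearest 2 genes are named. S100a11 and S100a13 were each other's nearest member at 0.05, closer than either was to its nearest other genes, Rnf208 (0.08 from each) and Gpx1 (0.10 and 0.09). S100a14 was nearest to Sh3bgrl3 and Nhp2 (0.07 and 0.08), S100a16 to Nhp2 and Csrp2 (0.06 and 0.09), and S100a10 to the integrin gene Itga3 and the syndecan gene Sdc4 (0.07 and 0.08). S100a4 was nearest to Traf5 and Tagln2 (0.15 and 0.16), S100a6 to Slco2a1 and Slc27a3 (0.17 for both), S100a1 to the respiratory chain gene Ndufa11 and Tmem223 (0.06 and 0.07), and S100b to Ddx54 and Fam98b (0.06 and 0.07). S100a3 lay nearest to the hair keratin-associated protein genes Krtap3-3 and Krtap11-1, at distances of 0.34 and 0.36. Being picked as nearest, the named genes had to lie below the median distance over other genes, so that position is no evidence of likeness. The median is given for scale and ran from 0.31 for S100b to 1.66 for S100a3. None of the genes named as nearest was called.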

How the data were processed

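Bulk RNA-seq of dorsal skin was analysed in 4 TPH1 knockout and 4 wild-type libraries. RNA came from a Qiagen column kit and library preparation used NEBNext Ultra RNA, an unstranded kit, per the labels' protocols. Build GRCm38 and the tools RSEM 1.31, STAR 2.7.6a, DESeq and DESeq2 are listed in the submitters' processing notes without roles. Ensembl release 101 is named per the labels. Per the file headers, the deposited expected counts are RSEM's estimated counts per gene, and the deposited TPM values correct them for effective length and depth. The deposited FPKM values entered no test, and effective gene lengths (another deposited column) entered 1 alternative. The authors' matrix of 17382 genes holds a DESeq2-normalized signal per the labels and gave symbols and 1 alternative.

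Expected counts were rounded and tested with edgeR 4.0.16 (R 4.3.3): filterByExpr (minimum count 10, minimum total 15), TMM scaling, robust quasi-likelihood F test, Benjamini-Hochberg adjustment over 16908 genes, called at 0.05. SE was taken as |log2 fold change|/sqrt(F), and intervals use the fit's t distribution. CPM is relative to TMM-scaled library size. The same script was tested on simulated data. Alternatives used DESeq2 1.42.0, limma 3.58.1, RLE scaling, no filter, a length offset, and fits without libraries. Single ratios, computed with 0.5 added to each count, were compared by exact two-sided permutation over 70 assignments. Coordinates come from GENCODE M21, promoters from RefSeq (GRCm38.p6), and copies were found with BLAST 2.17.0. Named genes are the members, called list genes, and otherwise up to 4 genes of a list (3 of a marker list) with the smallest p; Ahnak, Myh9, Cacybp, Padi3 and Ager were named besides, after their values were seen. The members and the 18 lists were chosen with earlier results of these data known. One gene of the receptor list is not reported here.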

Additional observations from a re-analysis of the deposited data

Results flagged for a closer look

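In a search of the 20 groups of 4 libraries given by 10 members and 2 genotypes, 2 values stood far from the rest of their group by Dixon's test, which chance alone does in about 1 of 20 groups. S100a3 was at 69.0 CPM in Tph1 knockout replicate 3, against 0.648 to 8.95 CPM in the other knockout libraries, and the same library held 458 CPM of hair shaft markers. S100b was at 7.17 CPM in Tph1 knockout replicate 1, against 5.55 to 5.66 CPM in the other knockout libraries, a gap that lies inside the wild-type range of 5.49 to 7.41 CPM.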

How the results depend on the processing

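The number of genes called over the whole table was 110. It was 984 by DESeq2, 28 and 29 by limma on log2(TPM + 1) and log2(TPM + 0.1), 167 without both libraries in doubt (Tph1 knockout replicate 3 and wild-type replicate 2), and 8 to 170 without 1 library. The lowest count came without Tph1 knockout replicate 2 and the highest without Tph1 knockout replicate 3. It was 19 and 14 without Tph1 knockout replicates 1 and 4, 26, 32 and 27 without wild-type replicates 1, 3 and 4, and 88 without wild-type replicate 2. The number of S100 members called was 0, against 6 by DESeq2 and 1, S100a4, with no filter on low counts. It was 0 in the other 14 alternatives, including all 8 that left out 1 library. The members' median log2 fold change ran from -0.87 to -0.60 without 1 library and stayed negative in every alternative. S100a1, at -0.03, was reversed at 0.26 without both libraries in doubt and ran from -0.21 to 0.12 without 1 library, being above 0 when Tph1 knockout replicate 3, wild-type replicate 2 or wild-type replicate 4 was absent. S100a3, at 2.97, was 0.55 without Tph1 knockout replicate 3 and 0.43 without both. The cause of these shifts was not tested. No paired analysis was possible because the labels give no replicate numbers shared between genotypes. S100b, with 122 to 196 counts, and S100a3, with 14 to 96 counts in 6 of the libraries, are the members that depth limits most.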

Other observations

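Genes that carry an S100 domain fused to long repeats, the S100-fused envelope genes, were all 7 tested and 0 were called. Flg, the filaggrin gene, was at 33.9 ± 16.7 CPM in knockout and 66.3 ± 18.3 CPM in wild type (SD, n = 4 each; log2 fold change -0.97 ± 0.32 SE, edgeR adjusted p = 0.188). Tchh, the trichohyalin gene of the inner root sheath, measured 9.25, 40.4, 921 and 7.33 CPM in knockout replicates 1 to 4, against 8.09, 7.77, 47.6 and 10.9 CPM in wild-type replicates 1 to 4, so that the same library as for S100a3 stood out. Its log2 fold change was 3.72 ± 1.57 (SE, edgeR adjusted p = 0.267). Tchhl1 and Crnn were highest in that library too, at 32.1 and 34.2 CPM (log2 fold changes 4.39 ± 1.59 and 3.34 ± 1.91 SE, edgeR adjusted p = 0.211 and 0.384). Among the knockout libraries, Flg, Flg2, Hrnr and Rptn were also highest in replicate 3, at 57.6, 464, 35.6 and 24.4 CPM. Their wild-type ranges were 47.3 to 90.3, 168 to 675, 7.15 to 53.1 and 0.405 to 5.75 CPM. Log2 fold changes of Flg2, Hrnr and Rptn, named after their values were seen, were -0.68 ± 0.63, -0.36 ± 0.65 and 1.72 ± 1.6 (SE, edgeR adjusted p = 0.594, 0.799 and 0.596).

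Of 7 other S100 genes listed, 6 were found and 3 were tested, none of them called. The neutrophil alarmin genes S100a8 and S100a9 were nearly silent, at 0.642 ± 0.406 and 0.602 ± 0.389 CPM in knockout and 1.07 ± 1.08 and 1.48 ± 1.09 CPM in wild type (log2 fold changes -0.74 ± 0.95 and -1.29 ± 0.64 SE, edgeR adjusted p = 0.708 and 0.327). S100a7a was at 2.44 ± 2.06 CPM in knockout and 1.13 ± 0.63 CPM in wild type (1.10 ± 0.64 SE, edgeR adjusted p = 0.385). For the 6 endothelial markers the median was 0.09 on the log2 scale, with Vwf, Cdh5 and Pecam1 at 0.46 ± 0.43, 0.24 ± 0.24 and 0.12 ± 0.25 (SE, edgeR adjusted p = 0.592, 0.614 and 0.840).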
